A study of Homo sapiens with 9 samples.

Results

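The unperturbed arm of an experiment on the transcription factor CTCFL (BORIS) in OVCAR3 cells was described here by itself, as the levels of named genes. OVCAR3 is an established cell line of high-grade serous ovarian carcinoma, grown in medium with serum at 20% and insulin at 0.01 mg/ml. The members were the 3 libraries of the Control group among the 9 libraries of the series, and no other group entered any value. The labels give Control as cells with no CTCFL treatment. The methods of the study state that these cells received 2 µg of a LacZ plasmid and were collected after 48 h, so they were transfected but carried no change aimed at CTCFL. Each biological replicate pooled 3 technical replicates, and all 3 came from the same cell line, so the spread given below is between cultures and not between patients.

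High-grade serous carcinoma is thought to arise mostly from the secretory cells of the fallopian tube, a derivative of the Müllerian duct. PAX8 and SOX17 are transcription factors of that lineage, WT1 separates serous from other ovarian carcinomas, and the tumors shed MUC16 (CA125) and WFDC2 (HE4), both measured in blood. CCNE1 encodes cyclin E1, which drives cells from G1 into S phase together with CDK2, and it is gained in a subset of these tumors. Levels are given on 2 scales. CPM brings the counts of each library to a common total after scaling of the library sizes, and it still grows with transcript length. TPM divides by exon length before the common total is set, and it was used to set genes against each other unless CPM is named beside a value. A gene at 1 TPM or more on average was taken as detected above background, and a gene with 3 counts or fewer in every library was taken as being at the floor.

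The libraries held between 19006695 and 24490080 counts. At this depth 12046 of 19920 protein-coding genes (60.5%) reached 1 TPM, 5127 (25.7%) were at the floor and 1041 (5.23%) reached 100 TPM. The median protein-coding gene had 3.66 TPM, and the median of those that reached 1 TPM was 14.8 TPM. Replicates lay close together, with a common biological coefficient of variation of 4.89% over 16070 genes. For each pair of libraries the chi-square statistic of the raw counts per degree of freedom was between 3.21 and 7.53, above the value of about 1 that sampling noise alone gives, so all 3 were kept as separate samples. The 10 genes with the highest TPM, of which 9 are mitochondrially encoded, took 19.02% to 19.3% of all TPM. These were, from the highest down, MT-CO3, MT-ATP6, MT-ND4, MT-CO1, MT-ND4L, MT-CO2, MT-ATP8, MT-ND2, MT-ND1 and a processed pseudogene of 75 bases without a symbol.

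All 4 markers of the cells were detected in every library. WFDC2, a secreted protease inhibitor with WAP domains, had 529, 472 and 481 TPM (494 ± 30.9, SD, n = 3). PAX8 had 232, 236 and 241 TPM (237 ± 4.70), and CCNE1 had 152, 149 and 145 TPM (148 ± 3.44). MUC16, a very large membrane mucin, had 12.6, 19.8 and 13.4 TPM (15.3 ± 3.93). The first 3 exceeded at least 96.8% of protein-coding genes on this scale, while MUC16 exceeded 70.2%. By CPM, which is not divided by length, PAX8 came first at 602 ± 7.13 CPM and CCNE1 last at 126 ± 5.40 CPM. MUC16 at 233 ± 56.8 CPM, above 96.6% of protein-coding genes, and WFDC2 at 228 ± 19.3 CPM lay between these, with overlapping ranges over the libraries. MUC16 was above WFDC2 in replicate 2 alone, at 298 against 215 CPM, and without that library it had 199.8 CPM and WFDC2 235 CPM. The exons of MUC16 span 44165 bases and those of WFDC2 1335 bases. With the length of the canonical transcript in their place, MUC16 had 10.03 TPM and WFDC2 759 TPM. On GRCh38 MUC16 lies on the minus strand of chromosome 19 from 8848844 to 9010390, WFDC2 on the plus strand of chromosome 20 from 45469753 to 45481532, PAX8 on the minus strand of chromosome 2 from 113215997 to 113278921 and CCNE1 on the plus strand of chromosome 19 from 29811991 to 29824312.

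Sequence just upstream of the start site differed with the level of the gene across the genome, and 5 windows picked by hand are shown as examples. PAX2 was at the floor and the others were above 100 TPM, so levels between these are not represented. The examples do not follow the genome-wide difference gene by gene. They are the 250 bases before the RefSeq start on GRCh38.p14, 5′ to 3′ on the strand of the gene. Capitals mark CCAAT and GGGCGG on either strand, and TATAAA, also searched on both strands, was in none of the 5. The GENCODE gene begins at the same base for PAX8, PAX2, WFDC2 and CCNE1 and 95 bases away for NMU.
PAX8 (chr2:113278922-113279171, minus strand): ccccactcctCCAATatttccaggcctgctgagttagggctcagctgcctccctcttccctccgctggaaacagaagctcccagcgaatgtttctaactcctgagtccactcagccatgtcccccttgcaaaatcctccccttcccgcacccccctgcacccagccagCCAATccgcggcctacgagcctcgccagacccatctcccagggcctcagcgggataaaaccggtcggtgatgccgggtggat
PAX2 (chr10:100735146-100735395, plus strand): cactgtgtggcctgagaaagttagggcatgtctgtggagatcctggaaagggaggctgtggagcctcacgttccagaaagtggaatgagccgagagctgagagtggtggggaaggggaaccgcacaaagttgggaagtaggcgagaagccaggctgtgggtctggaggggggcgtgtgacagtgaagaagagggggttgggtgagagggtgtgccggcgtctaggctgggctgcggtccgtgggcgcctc
WFDC2 (chr20:45469503-45469752, plus strand): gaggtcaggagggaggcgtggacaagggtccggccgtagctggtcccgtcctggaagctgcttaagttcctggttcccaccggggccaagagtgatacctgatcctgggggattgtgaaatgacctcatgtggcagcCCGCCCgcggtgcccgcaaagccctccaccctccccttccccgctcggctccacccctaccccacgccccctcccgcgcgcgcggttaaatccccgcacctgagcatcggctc
CCNE1 (chr19:29811741-29811990, plus strand): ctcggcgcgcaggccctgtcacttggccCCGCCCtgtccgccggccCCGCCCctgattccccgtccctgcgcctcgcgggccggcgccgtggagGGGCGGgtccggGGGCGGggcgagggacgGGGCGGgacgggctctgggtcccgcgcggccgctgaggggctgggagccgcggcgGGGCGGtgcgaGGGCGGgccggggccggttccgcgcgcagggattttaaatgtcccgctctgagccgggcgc
NMU (chr4:55636794-55637043, minus strand): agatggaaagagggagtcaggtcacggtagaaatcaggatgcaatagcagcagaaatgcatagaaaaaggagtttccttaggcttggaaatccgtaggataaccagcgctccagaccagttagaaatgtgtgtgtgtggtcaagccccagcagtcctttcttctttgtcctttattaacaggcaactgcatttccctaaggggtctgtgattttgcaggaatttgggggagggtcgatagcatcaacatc

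CCNE1 held 39 CG pairs and 7 GGGCGG matches in this window. WFDC2 held 19 CG pairs and 1 GGGCGG match, and PAX8 held 11 CG pairs and 2 CCAAT matches. PAX2, the closest relative of PAX8 in the kidney and Müllerian duct, was at the floor with 10 CG pairs and no match. NMU, which encodes the neuropeptide neuromedin U, reached 743 ± 22.8 TPM with 4 CG pairs and no match. Windows of this length held TATAAA in 9.23%, CCAAT in 34.7% and GGGCGG in 56.7% of the 15298 protein-coding genes with a window available here. The median window held 17 CG pairs. Many listed genes had no window, and only 9 of the 24 epithelial and 9 of the 15 serous genes were covered. Over the full 300-base windows, which add 50 bases after the start, the median number of CG pairs was 5 for genes at the floor, 25 from 1 to 10 TPM and 27 both from 10 to 100 TPM and from 100 TPM upward. GGGCGG was in 30.03% of windows at the floor and in 75.2% from 100 TPM upward, and CCAAT in 37.7% and 41.1%. TATAAA was in 20.4% at the floor, 4.47% from 10 to 100 TPM and 8.67% from 100 TPM upward. These are matches of letters and not measured sites, and the number of CG pairs and the GGGCGG count are not independent, since GGGCGG contains a CG pair.

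Of the 15 genes listed for the Müllerian and serous lineage, 14 reached 1 TPM and 8 reached 100 TPM, against 60.5% and 5.23% of all protein-coding genes. The list was chosen with these data known, so its count describes the cells and tests nothing. The highest was SPON1, the secreted matrix protein spondin 1, at 1451, 1594 and 1584 TPM, followed by WFDC2 and by CDH6 (cadherin 6) at 368 ± 15.8 TPM. After PAX8, SOX17 had 104 ± 7.44 TPM, EMX2, a homeobox gene of the genital tract, 84.7 ± 2.66 TPM, MECOM 53.3 ± 3.27 TPM and WT1 27.1 ± 0.823 TPM. MSLN (mesothelin) at 151 ± 3.01 TPM and CCNE1 at 148 ± 3.44 TPM overlapped in their ranges over the libraries. ESR1, the estrogen receptor α gene, was the only member under 1 TPM, with 6, 7 and 7 counts in the 3 libraries.

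**Figure D1:**
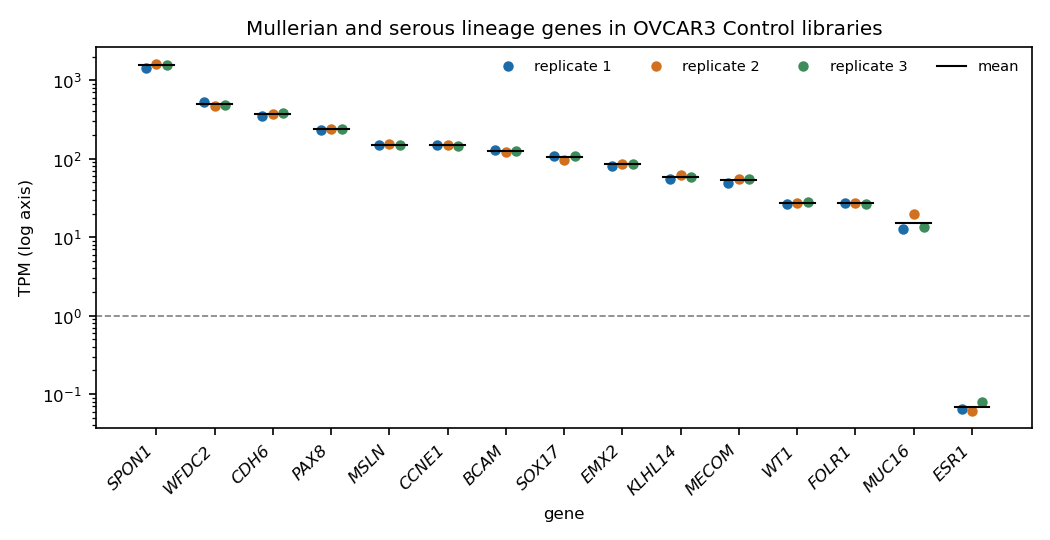
TPM on a log axis for the 15 Müllerian and serous lineage genes, 1 point per Control library and a bar at the mean, with a dashed line at 1 TPM. SPON1 is highest at 1543 TPM, the 3 libraries coincide for most genes, MUC16 is spread from 12.6 to 19.8 TPM, and ESR1 lies far below the line at 0.0682 TPM.

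All 24 listed epithelial genes reached 1 TPM and 14 reached 100 TPM, compared with 60.5% and 5.23% of all protein-coding genes. This list too was chosen with these data known, so its count tests nothing. KRT7, a keratin of simple and Müllerian epithelia, had 1094, 1099 and 1103 TPM, KRT19 had 863 ± 22.4 TPM and the surface glycoprotein gene CD24 had 843 ± 27.6 TPM. The adhesion genes EPCAM and CDH1 (E-cadherin) had 439 ± 16.3 and 95.9 ± 7.34 TPM. OVOL1, a repressor of mesenchymal genes, was lowest at 3.25 ± 0.520 TPM. Reads of keratins can also be placed on pseudogenes. The 51 pseudogenes named after KRT8 together had 62.5 CPM beside 1712 CPM of KRT8 itself, and the 4 named after CD24 had 26.6 CPM beside 901 CPM.

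Most genes listed for other lineages stayed under 1 TPM, except on the mesothelial list. Over all protein-coding genes, 60.5% reached 1 TPM and 25.7% were at the floor. Of 12 genes used to recognise clear cell, mucinous or intestinal carcinoma, only ANXA4 reached 1 TPM, at 5.43 ± 0.391 TPM. Of the others, 7 were at the floor. Of 18 mesenchymal and fibroblast genes, 6 (33.3%) reached 1 TPM, and 27.8% were at the floor, near the 25.7% of all protein-coding genes. The highest were SPARC, a collagen-binding matrix protein, at 29.2 ± 2.26 TPM, the repressor of E-cadherin SNAI1 at 19.3 ± 1.92 TPM and COL1A1 at 10.003 ± 0.933 TPM. VIM (vimentin) had 5.23 ± 0.158 TPM. The other collagen I chain, COL1A2, was at the floor together with COL3A1, DCN, SNAI2 and ZEB1. In bulk RNA, fewer cells of a type and less RNA per cell cannot be told apart.

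Of 9 mesothelial genes, 5 (55.6%) reached 1 TPM, near the 60.5% of all protein-coding genes, of which 25.7% were at the floor. The highest were MSLN and WT1, which are shared with the serous list. UPK3B had 9.30 ± 1.10 TPM, and HAS1, PKHD1L1 and BNC1 were at the floor. Of 16 gonadal and germ cell genes, 4 (25%) reached 1 TPM and 9 (56.25%) were at the floor. AMH, the anti-Müllerian hormone gene, was highest at 8.41 ± 1.0 TPM, then SALL4 at 3.14 ± 0.197 TPM and POU5F1 at 1.39 ± 0.174 TPM. AMHR2, which encodes the receptor of AMH, had no count in any library. Of 15 blood and endothelial genes, 2 (13.3%) reached 1 TPM, CD4 (3.70 ± 0.154 TPM) and VWF (1.44 ± 0.0833 TPM). PTPRC (CD45), present on nearly all white blood cells, had 0.0337 TPM, and the hemoglobin genes HBB and HBA1 were at the floor. The summed level of the blood and endothelial list was between 6.75 and 7.75 TPM in the libraries, compared with 6260 to 6472 TPM for the epithelial list.

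**Figure D2:**
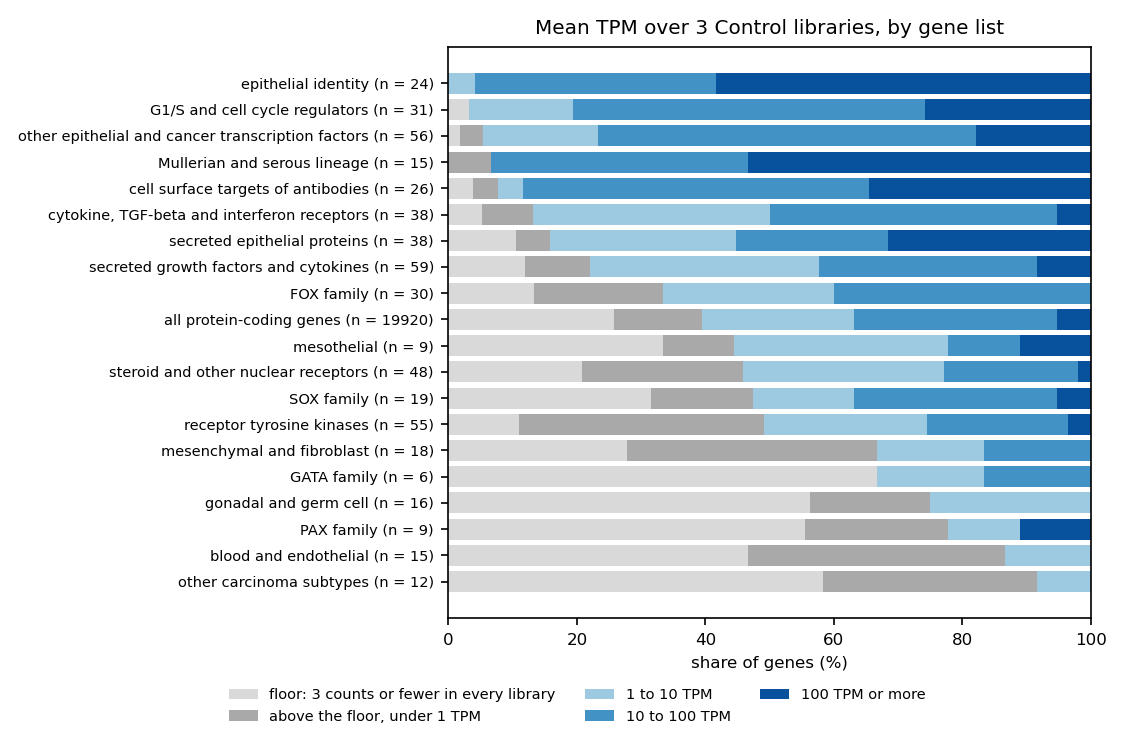
Share of each list's genes, in percent, that fell in each band of mean TPM over the 3 Control libraries, with all protein-coding genes for comparison. Dark blue (100 TPM or more) fills 58.3% of the epithelial list and 53.3% of the Müllerian and serous list, and pale grey (the floor) fills 58.3% of the list of other carcinoma subtypes.

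Among listed members of transcription factor families, 2 of 9 PAX genes (22.2%), 10 of 19 SOX genes (52.6%) and 20 of 30 FOX genes (66.7%) were detected. Of all protein-coding genes, 60.5% were detected and 25.7% were at the floor. The FOX list does not hold the whole family and was chosen with these data known, so its share depends on the members listed. Differences between the families were not tested. The PAX genes pattern embryonic organs, and of 9 only PAX8 (237 ± 4.70 TPM) and PAX9 (1.19 ± 0.0802 TPM) reached 1 TPM, while 5 were at the floor: PAX1, PAX2, PAX3, PAX4 and PAX7. Of 19 SOX genes, which encode factors with an HMG box, 10 reached 1 TPM. SOX17 led at 109, 95.4 and 107 TPM, then came SOX2, a pluripotency factor, at 62.8, 68.4 and 67.2 TPM and SOX4 at 52.9, 50.9 and 59.1 TPM. These 3 did not overlap in their ranges. SOX12 had 31.6 ± 2.55 TPM, SOX9 20.1 ± 1.05 TPM, SOX13 11.9 ± 0.350 TPM and SOX11 11.6 ± 0.570 TPM, and SOX5, SOX15 and SOX3 had between 1.44 and 3.20 TPM, while 6 of the 19 were at the floor. Of the 6 GATA genes, GATA2 had 11.4 ± 0.596 TPM and GATA6 1.92 ± 0.118 TPM, and GATA1, GATA3, GATA4 and GATA5 were at the floor.

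Of the 30 forkhead (FOX) genes listed, 20 reached 1 TPM and none reached 100 TPM. FOXS1 had 71.6 ± 4.25 TPM, FOXM1, a driver of genes for mitosis, 60.0 ± 2.26 TPM and FOXO3 40.3 ± 2.88 TPM. FOXA1 and FOXJ1, the latter a gene of ciliated cells, had 0.409 and 0.351 TPM. FOXC2, FOXF1, FOXL1 and FOXP2 were at the floor. Among 56 other factors of epithelia and cancer, 53 (94.6%) reached 1 TPM and 10 (17.9%) reached 100 TPM. For all protein-coding genes these shares were 60.5% and 5.23%. ID1, an inhibitor of basic helix-loop-helix factors, had 1306, 1205 and 1290 TPM, HMGA1, a chromatin protein, 844 ± 59.6 TPM and YBX1, a cold shock protein, 748 ± 20.9 TPM. For YBX1, 10 pseudogenes of that name together had 10.2% of its CPM. MYC had 15.7 ± 1.28 TPM.

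**Figure D3:**
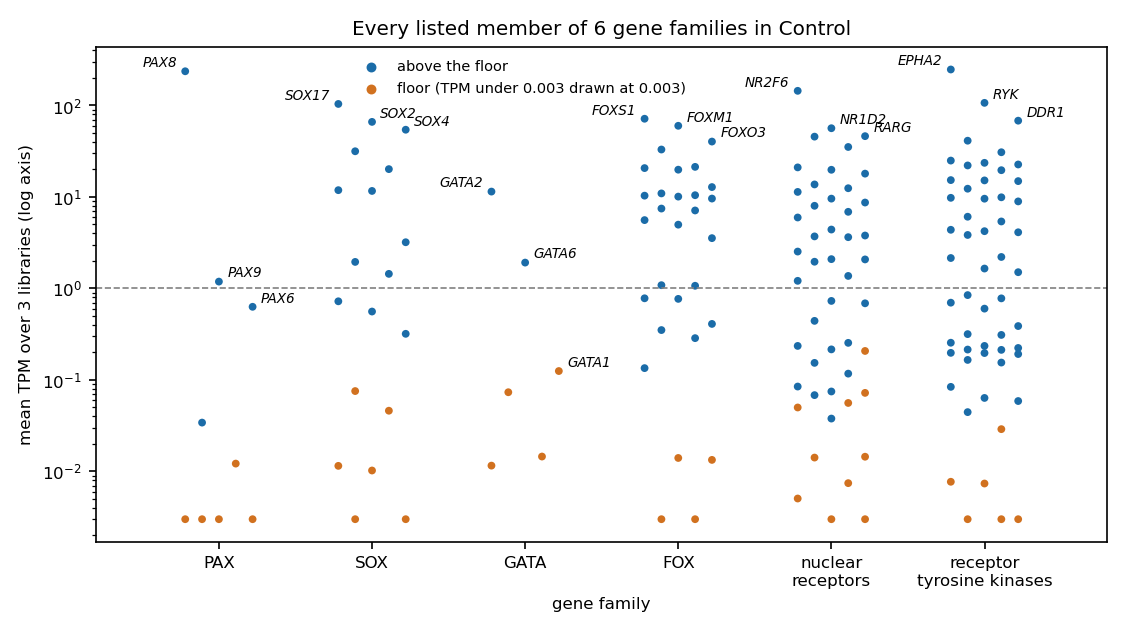
Mean TPM over the 3 Control libraries on a log axis for every listed gene of 6 families, 1 point per gene, with the highest 3 named, genes at the floor in orange and a dashed line at 1 TPM. The PAX column has 1 gene far above the rest, while the SOX, FOX, nuclear receptor and receptor tyrosine kinase columns are filled from the floor to 70 TPM or more.

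Nuclear receptors are transcription factors that bind steroids, retinoids and other small lipids, or have no known ligand. Of 48 genes, 26 (54.2%) reached 1 TPM, compared with 60.5% of all protein-coding genes, and 10 were at the floor. NR2F6, an orphan receptor, had 148, 133 and 152 TPM and was the only one above 100 TPM. NR1D2 of the circadian clock had 56.4 ± 2.80 TPM, RARG (retinoic acid receptor γ) 46.2 ± 0.711 TPM, ESRRA 45.6 ± 0.831 TPM and VDR, the vitamin D receptor, 35.2 ± 1.15 TPM. The ranges of RARG and ESRRA overlapped. NR2C2, RXRB, NR1H2, PPARD, RARA and RXRA had between 11.3 and 21 TPM. Between 1 and 10 TPM lay NR3C1, NR2C1, NR2F2, THRB, NR1D1, NR1H3, THRA, NR6A1, NR4A2, PPARA, NR4A1, NR2F1, RORA and NR3C2, among others. The estrogen and progesterone receptor genes were low in this order. ESR2 had 0.153 TPM, ESR1 0.0682 TPM and PGR a single count in 1 library. The glucocorticoid receptor gene NR3C1 had 9.58 ± 0.916 TPM. For NR2C2, 61.9% of the exonic bases are shared with the antisense neighbour MRPS25, so its level depends on whether counting used the strand.

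Receptor tyrosine kinases carry growth factor signals across the membrane, and of 55 listed, 28 (50.9%) reached 1 TPM, below the 60.5% of all protein-coding genes, and 6 were at the floor. EPHA2, an ephrin receptor, had 244, 244 and 254 TPM, RYK, a Wnt co-receptor with an inactive kinase, 107 ± 2.78 TPM and DDR1, a collagen receptor, 68.2 ± 1.90 TPM. EGFR had 41.2 ± 3.57 TPM, above ERBB3 (25.0 ± 1.86 TPM), ERBB2 (22.1 ± 0.850 TPM) and ERBB4 (9.57 ± 0.713 TPM). All 4 FGF receptor genes were detected, from FGFR4 at 22.6 ± 0.0517 TPM through FGFR3 at 15.3 TPM and FGFR1 at 12.3 TPM to FGFR2 at 9.78 TPM. EPHB4, EPHA1, PTK7, MET and EPHB2 had between 14.9 and 30.8 TPM. EPHA4, EPHB3, MST1R, ROR1, TYRO3, IGF1R, INSR, STYK1, KIT, MERTK, EPHB6 and ALK had between 1.5 and 9.91 TPM. The kinases of stroma and vessels were low, with PDGFRB at 0.0839 TPM, PDGFRA at 0.0587 TPM and KDR at 0.845 TPM.

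Receptors of cytokines, TGF-β family members and interferons were widely detected, 33 of 38 (86.8%) at 1 TPM or more, compared with 60.5% of all protein-coding genes. TNFRSF12A, the receptor of the TNF-like factor TWEAK, had 212 ± 9.96 TPM, IL1R1 137 ± 5.59 TPM and TGFBR2 93.9 ± 2.94 TPM. The other TGF-β receptor chain, TGFBR1, had 8.91 ± 0.680 TPM. IL2RG and AMHR2 were at the floor. The exons of IL2RG and those of a neighbouring gene share 51.3% of its bases, so a count of 0 does not show that it is silent. IFNAR2 (0.415 TPM) and IL10RB (0.623 TPM) also share exons with a readthrough gene, over 14.7% and 21.6% of their bases.

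Among 26 cell surface proteins against which antibodies have been made, 24 (92.3%) reached 1 TPM and 9 (34.6%) reached 100 TPM. The shares over all protein-coding genes were 60.5% and 5.23%. CD47, the signal that restrains phagocytosis, had 753 ± 30 TPM, the phosphate transporter SLC34A2 (NaPi2b) 556 ± 28.7 TPM and EPCAM 439 ± 16.3 TPM. CLDN6, an embryonic claudin, had 257 ± 4.30 TPM. FOLR1, the folate receptor α gene, had 27.5, 27.1 and 26.2 TPM. CD274 (PD-L1) had 0.612 TPM and CLDN18 was at the floor.

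Secreted proteins of epithelia included the gene with the highest TPM of any list. Of 38, 32 (84.2%) reached 1 TPM and 12 (31.6%) reached 100 TPM, compared with 60.5% and 5.23% of all protein-coding genes. SLPI, an inhibitor of leukocyte elastase, had 1750, 2093 and 1764 TPM (1869 ± 194), with replicate 2 above the others. IGFBP3, which binds insulin-like growth factors, had 756 ± 13.3 TPM. SLPI, WFDC2 and PI3 (238 ± 3.09 TPM) encode proteins with WAP domains and lie on chromosome 20 between 45174902 and 45481532. The kallikrein proteases of 19q differed widely among themselves, with KLK6 at 117 ± 3.84 TPM, KLK5 at 45.6 ± 1.53 TPM, KLK10 at 24.0 ± 0.316 TPM, KLK8 at 9.41 ± 0.794 TPM, KLK7 at 4.90 ± 0.857 TPM and KLK11 at 0.357 TPM. Of the exonic bases of KLK8, 40.1% are shared with another gene. SCGB2A1, TFF1, TFF3 and CRISP3 were at the floor. The complement gene CFB had 0.490 TPM, but 42.8% of its exonic bases are shared with a neighbouring gene.

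Of 59 growth factor and cytokine genes, 46 (78.0%) reached 1 TPM, compared with 60.5% of all protein-coding genes. NMU had 727, 769 and 732 TPM, MDK, the heparin-binding factor midkine, 467 ± 10.9 TPM and the neutrophil chemokine CXCL1 252 ± 7.02 TPM. FGF18 and BMP7 followed at 148 ± 5.19 and 111 ± 3.49 TPM. Ligands of the EGF family were ordered BTC (24.5 ± 1.5 TPM), TGFA (9.56 ± 0.858 TPM), AREG (4.74 ± 0.141 TPM), HBEGF (2.74 ± 0.482 TPM), NRG1 (2.10 TPM) and EGF (1.58 TPM), with EREG at the floor. VEGFB had 72.0 ± 3.56 TPM and VEGFA 2.99 ± 0.162 TPM. HGF, IGF2, PTN, BMP2, CXCL12 and IL1B were at the floor too, but 43.2% of the exonic bases of IGF2 are shared with a neighbouring gene on the same strand. MIF was listed at 0.807 TPM, with 2 to 6 counts, but 94.1% of its exonic bases are shared with other genes on one strand or the other.

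The cell cycle list was detected almost whole, 30 of 31 (96.8%) at 1 TPM or more. Over all protein-coding genes that share was 60.5%. CCND1 had 302, 299 and 321 TPM, CCNB1 293, 310 and 304 TPM and CDKN2A, which encodes the inhibitor p16, 169, 151 and 163 TPM. Among G1/S cyclins the order was CCND1, CCNE1 (148 TPM), CCND3 (14.3 ± 1.02 TPM) and CCNE2 (8.44 ± 0.877 TPM), with CCND2 at the floor. Their kinases CDK4, CDK6 and CDK2 had 115 ± 5.11, 40.02 ± 2.18 and 38.0 ± 0.779 TPM. CDKN1A, which encodes the kinase inhibitor p21, had 4.0 ± 0.599 TPM, FBXW7, which marks cyclin E for degradation, 4.99 ± 0.390 TPM and RB1 18 ± 1.43 TPM.

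Within 2 Mb of CCNE1 in 19q12 there were 9 protein-coding genes, of which 6 reached 1 TPM. That count is near the share of 60.5% over all protein-coding genes and 55.1% on 19q. URI1, the next gene in the direction of higher coordinates, with its midpoint 152 kb from that of CCNE1, had 141, 142 and 141 TPM, POP4, which encodes a subunit of RNase P, had 107 ± 3.85 TPM, UQCRFS1 of respiratory complex III 53.7 ± 0.421 TPM, C19orf12 46.6 ± 0.933 TPM and PLEKHF1 40.2 ± 0.802 TPM. Each of these genes at 1 TPM or more exceeded at least 85.8% of protein-coding genes. VSTM2B and ZNF536 had no count and TSHZ3 had 1 count in 1 library.

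By chromosome arm, the median TPM of protein-coding genes at 1 TPM or more ran from 7.64 on Xp to 26.5 on 20q, compared with 14.8 over all arms. The arms 20q (25.8, 26.9 and 26.2 TPM in the libraries), 5p (25.4, 27.8 and 26.9 TPM), 18p (24.4, 22.9 and 26.0 TPM), 21q (23.2, 23.3 and 24.0 TPM) and 3q (22.0, 22.6 and 24.4 TPM) were highest, with overlapping ranges among neighbours. At the low end, 19q had 8.45 TPM, 18q 8.17 TPM and Xp 7.64 TPM. The arms of chromosome 18 thus stood at opposite ends of the order, with 43 genes on 18p and 122 on 18q and no overlap between libraries. The share of genes at 1 TPM or more did not follow the same order, from 46.0% on Xq to 70.2% on 2p, with 63.5% on 20q. DNA copy number was not measured in these files. Arms also differ in the genes they carry. On 19q, 112 of the 459 genes at 1 TPM or more are ZNF zinc finger genes with a median of 3.04 TPM, and without them the median of 19q was 14.1 TPM. Without ZNF genes 20q had 26.5 TPM, 18q 8.17 TPM and Xp 8.13 TPM.

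The highest protein-coding gene of 20q was SLPI, of 3q CD47, of 11p SPON1 and of 4p SLC34A2, each a member of the lists above, and that of 5p was CCT5, a subunit of the chaperonin TRiC, at 431 ± 28.3 TPM. On 18p it was MYL12B, a myosin light chain, at 777 ± 58.1 TPM, and on 18q LAMA3, a laminin chain of epithelial basement membranes, at 172 ± 17.3 TPM. Other arms were led by RPS2 on 16p (7274 ± 207 TPM), TMSB10 on 2p (4879 ± 103 TPM), FTH1 on 11q (4624 ± 271 TPM), GAPDH on 12p (4065 ± 134 TPM) and ACTB on 7p (3729 ± 139 TPM). Ribosomal protein genes were highest on 10 more arms, RPS3A on 4q, RPS4X on Xq, RPS6 on 9p, RPS12 on 6q, RPS16 on 19q, RPL3 on 22q, RPL8 on 8q, RPL13 on 16q, RPL21 on 13q and RPL29 on 3p. Others were led by ENO1 on 1p, S100A6 on 1q, PTMA on 2q, NPM1 on 5q, HSP90AB1 on 6p, HSPB1 on 7q, CTSB on 8p, TUBB4B on 9q, GDI2 on 10p, PSAP on 10q, HSP90AA1 on 14q, PKM on 15q, PFN1 on 17p, ACTG1 on 17q, EEF2 on 19p, DSTN on 20p, PTTG1IP on 21q and TMSB4X on Xp. In windows of 2 Mb with at least 8 genes at 1 TPM or more, 555 in all, the highest median was 85.6 TPM on 3q over 8 genes including PFN2, SERP1 and SIAH2. The next was 78.2 TPM on 20q over 10 genes including AURKA, BMP7, RBM38 and TFAP2C.

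**Figure D4:**
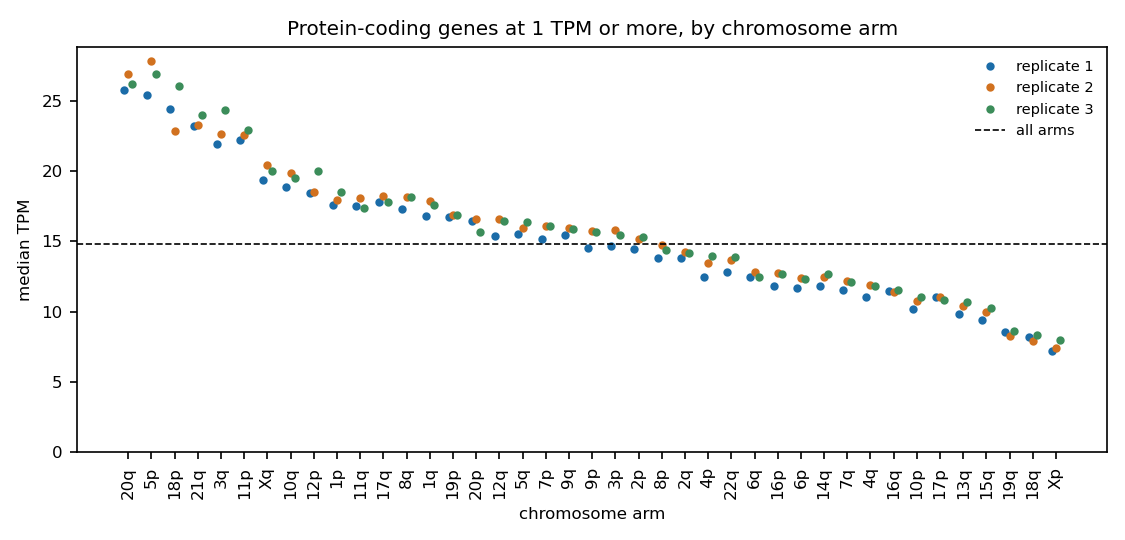
Median TPM of the protein-coding genes at 1 TPM or more on each chromosome arm, 1 point per Control library, with arms ordered by the value of the mean and a dashed line at 14.8 TPM for all arms. The libraries give nearly the same order, from about 26 TPM on 20q and 5p to between 7.21 and 8.31 TPM on 18q and Xp.

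Spread between libraries fell with the level. The median coefficient of variation of protein-coding genes was 8.40% from 1 to 10 TPM, 5.06% from 10 to 100 TPM and 3.98% from 100 TPM upward. The least even list members at 10 TPM or more were MUC16 (25.8%), the proliferation gene MKI67 (15.9%), the B7 family gene VTCN1 (14.3%), the copper carrier ceruloplasmin CP (12.3%) and the AP-1 subunit FOSL1 (11.9%). MUC16 had the largest coefficient of variation of all 7321 protein-coding genes at 10 TPM or more. Its counts of 3762, 7281 and 3851 corresponded to 197, 298 and 203 CPM after scaling for library size. MUC16 also has the longest exon sequence of these genes, and length moved with the difference between libraries. Replicate 1 was below the mean of the others by a median log2 difference of -0.02 in the shortest quintile of genes and -0.12 in the longest quintile. Replicate 2 went from 0.01 to 0.06 and replicate 3 from 0.01 to 0.06. Of the 20 longest genes, 14 were highest in replicate 2, compared with 42.8% of all genes at 10 TPM or more. The part of length in the spread of MUC16 was not tested.

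**Figure D5:**
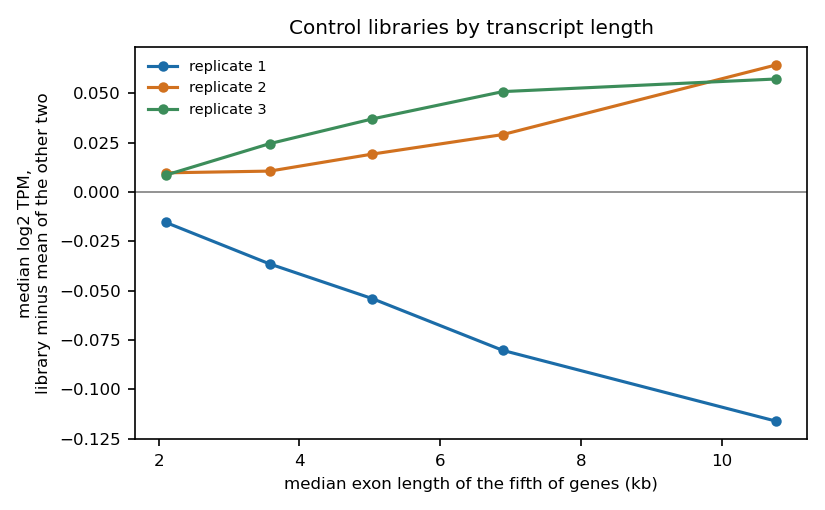
Median log2 TPM of each Control library minus the mean of the other libraries, for quintiles of the 7321 protein-coding genes at 10 TPM or more ordered by exon length in kb. Replicate 1 falls to -0.12 in the longest quintile, while replicates 2 and 3 rise to 0.06.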

How the data were processed

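The deposited values are raw counts of reads per gene for 9 libraries of OVCAR3 cells, of which the 3 Control libraries were used. According to the methods of the study, the authors used Trimmomatic for trimming of the paired-end reads, STAR for alignment to GRCh38 and featureCounts for the counts. The submitters' processing notes name kallisto beside Trimmomatic and featureCounts. Which annotation release was used, whether strand was used and how multi-mapping reads were handled is not given in the sources used here, so genes with close paralogs, pseudogenes or overlapping neighbours are uncertain.

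Counts were scaled with TMM factors of edgeR 4.0.16 in R 4.3.3 and expressed as CPM. TPM used the union exon length of GENCODE 44, known for 60419 of 60660 identifiers, and the other identifiers held at most 0.136% of the counts. A gene with 3 counts or fewer in every library was at the floor, which corresponded to between 0.123 and 0.158 CPM. Bands were set at 1, 10 and 100 TPM. Limits from counts cover counting error only, since the reads carry no molecular identifiers. The biological coefficient of variation came from edgeR, shared exons from bedtools 2.31.1 and promoter windows from RefSeq on GRCh38.p14. Tables and plots used Python 3.11.15, pandas 2.3.3 and matplotlib 3.10.9. The steps that give levels, bands and the coefficient of variation were tested on simulated data. No groups were compared, no p-value was computed, and a chi-square statistic was used only to look for duplicate libraries.

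The 19 lists with 492 distinct genes, all found, were chosen with earlier results of these data known. Named were the 4 markers, the highest 3 members of each list, its members at the floor where 5 or fewer, members of complete families at 1 TPM or more, the 10 highest genes, the highest gene of each arm, genes within 2 Mb of CCNE1 at 1 TPM or more and the 5 least even members. Other genes were named, and the exon-sharing classes, pseudogene sums, length quintiles and arm medians without ZNF genes were added, after the values were seen. The arm 21p had no protein-coding gene at a mean of 1 TPM and is left out of the arm medians. Some genes that the rule names are not reported here. The alternatives were DESeq2 1.42.0 size factors, unscaled totals, the length of the canonical transcript, TPM without mitochondrially encoded genes, thresholds of 0.5 and 2 TPM, a minimum of 10 counts, no filter and each library left out.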

Additional observations from a re-analysis of the deposited data

How the results depend on the processing

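With the length of the canonical transcript, WFDC2 had 759, PAX8 280, CCNE1 122 and MUC16 10.03 TPM, and without mitochondrially encoded genes 632, 303, 190 and 19.5 TPM. Under the canonical length, 45 of 334 list members outside these markers and at 1 TPM or more were over 1.5 times higher and 40 over 1.5 times lower, with ratios to the level under the union of exons from 0.651 to 5.17, so the orders of genes given here depend on the isoform assumed. Leaving out mitochondrially encoded genes raised all 334 alike, by a median factor of 1.28. With a threshold of 2 TPM, 2 gonadal and germ cell genes, 1 blood and endothelial gene, 1 PAX gene and 1 GATA gene remained above it. The other list counts stayed within 1.5 times under the alternatives run for them. These were the thresholds, the canonical length, TPM without mitochondrially encoded genes and each library left out. The number of protein-coding genes was between 11053 and 12921 over the same alternatives and a minimum of 10 counts. The median of 20q was 22.1 TPM at a threshold of 0.5 TPM and 28.7 TPM at 2 TPM, and that of Xp was 6.56 TPM and 10.6 TPM at those thresholds, 9.04 TPM with the canonical length and 8.13 TPM without ZNF genes, an alternative chosen after seeing the data. Over these settings and those without 1 library, 20q ranked 1 to 3 and Xp 39 to 41 of 41 arms. Without 1 library in turn the common coefficient of variation was between 3.93% and 5.62%, and MUC16 between 13.0 and 16.6 TPM. Scaling by DESeq2 size factors or unscaled totals moved the CPM of none of the 4 markers by more than 1 SD. No paired analysis was possible because the results come from no test.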

Other observations

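Genes whose exons lie almost wholly within those of another gene were mostly at low levels. Of the 503 protein-coding genes with over 90% of their exonic bases in exons of another gene on the same strand, 98.4% were under 1 TPM and 90.5% at the floor, compared with 38.0% and 24.6% of the 16329 genes that share none. CD68, a macrophage marker, had no count in any library and shares 81.6% of its exonic bases. The low value of such a gene cannot be told apart from reads left uncounted.

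Of 4 lncRNA genes of 21p annotated with 923 bases each, 3 had nearly equal counts and 1 had fewer. The 3 had 65086 to 65089 counts in replicate 1, 41280 to 41283 in replicate 2 and 47327 to 47337 in replicate 3, and the other had 49079, 30491 and 35658 counts. The mean of all 4 was 9793, 5019 and 7412 TPM in replicates 1, 2 and 3. Processed pseudogenes took 2.37% to 2.47% of the counts and 13.6% to 13.8% of the TPM. EEF1A1P5, a pseudogene of the elongation factor gene EEF1A1, stood at 7349 ± 318 TPM and EEF1A1 itself at 2783 ± 171 TPM, while by CPM EEF1A1 had 9668 and the pseudogene 3525. The exon length used was 1389 bases for the pseudogene and 10063 bases for EEF1A1.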
